A study of Mus musculus with 4 samples.

Results

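The genes described here encode the WNT ligands, their receptors and co-receptors, the R-spondins, the secreted antagonists and a few feedback and nuclear genes of the pathway. They were chosen by gene symbol: the Wnt, Fzd, Sfrp, Dkk and Rspo genes, with Lrp5, Lrp6, Ror1, Ror2, Axin2, Lef1, Tcf7, Nkd1, Nkd2 and Wif1. The rule found 51 of the 54842 genes in the count table, of which 19 are ligands, 10 receptors, 4 co-receptors, 9 antagonists, 4 R-spondins and 5 feedback and nuclear genes. The antagonist Frzb, also known as Sfrp3, does not carry a symbol of the rule and is not among them.

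RNA sequencing, after removal of ribosomal RNA, was done on untreated mouse embryonic fibroblasts (MEF cells), with 2 libraries of wt cells and 2 libraries of cells null for Top2β, a topoisomerase that passes 1 DNA duplex through another. The study used them to ask whether Top2β has a role in the transcription of satellite repeats. The Top2β-null cells were derived from Top2β-null mice and were a gift from other laboratories. The study does not say whether the wt cells sequenced beside them share that origin. Origin of the cells and genotype therefore cannot be told apart. No source used here gives the null allele, the age or sex of the embryos, or whether the libraries of a genotype are separate cultures, and the p-values below then measure the spread between these libraries.

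WNT proteins are secreted lipid-modified ligands that bind Frizzled receptors together with the co-receptors Lrp5 or Lrp6 to stabilize β-catenin, or together with Ror1 or Ror2 to signal without it. R-spondins raise the amount of Frizzled at the cell surface, whereas Sfrp proteins and Wif1 bind the ligands and most Dkk proteins block the co-receptors. In fibroblasts and other mesenchymal cells the pathway is known for its part in the choice between bone, fat and connective tissue fates.

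The counts summed to between 133116830 and 149647278 per library. Values are normalized counts, which are counts scaled to a common library size, and the libraries are given in the order replicate 1 and replicate 2. The targeted gene Top2b had 18259 and 18465 normalized counts in wt cells and 3879 and 3789 in Top2β-null cells, or 20.9% of the wt mean. For the protein, the study shows a Western blot in which Top2β was absent from the Top2β-null cells. The labelled cell type was checked with 10 fibroblast markers, whose summed level lay between 874591 and 890491 in wt and between 547653 and 552866 in Top2β-null cells. Col1a2, which encodes a chain of collagen I, was at 188663 ± 1819 and 183788 ± 820 (SD, n = 2), but 4 of the 10 markers were called higher (Dcn, Pdgfra, Pdgfrb and Thy1) and 3 lower (Col1a1, Col3a1 and Postn), and Lum was near 0 in both genotypes. Among markers of other cell types, the summed level of 8 leukocyte markers went from 2420 and 2501 to 1351 and 1356, with Ptprc below 10 and Tyrobp at 0. Cd68, with 1665 ± 33.4 in wt and 296 ± 9.34 in Top2β-null cells (SD, n = 2), carried this fall, while Csf1r, Fcer1g and Itgam passed the test in the other direction (log2 fold changes 0.36, 0.74 and 4.68). Among neural markers, Tubb3 was called higher, with 2014 ± 10.3 in wt and 4460 ± 195 in Top2β-null cells (SD, n = 2). The sums of the endothelial, epithelial, muscle and bone and cartilage markers stayed at or below 259 in every library, but single markers in them changed. Kdr (log2 fold change 1.54) was called higher and Col2a1 (4.21) rose at a low level, while Acan (-4.41), Des (-6.12), Krt8 (-3.13) and Tek (-2.54) fell at low levels. The part of these marker differences in the results below was not tested. In bulk RNA, fewer cells that express a gene and less RNA per cell cannot be told apart.

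The largest fold change among the genes called here was that of Wnt10b, which lies beside Wnt1 on chromosome 15. The starts of the pair lie 11.7 kb apart and point away from each other. The 250 bases before each start are shown because Wnt10b had the largest change among the called genes and Wnt1 is the nearest tested protein-coding gene before its start, as the ends of the interval between them, most of which is not printed. They come from RefSeq on GRCm38.p6, 5′ to 3′ in the direction of transcription and with each CG dinucleotide in capitals. Wnt10b lies on the reverse strand (chr15:98778151-98778400) and Wnt1 on the forward strand (chr15:98789607-98789856).
Wnt10b: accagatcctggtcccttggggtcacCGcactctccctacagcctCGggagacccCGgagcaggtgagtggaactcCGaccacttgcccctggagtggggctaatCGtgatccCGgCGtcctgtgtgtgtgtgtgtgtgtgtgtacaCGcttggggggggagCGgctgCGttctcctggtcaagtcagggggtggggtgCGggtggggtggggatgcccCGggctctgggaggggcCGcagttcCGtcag
Wnt1: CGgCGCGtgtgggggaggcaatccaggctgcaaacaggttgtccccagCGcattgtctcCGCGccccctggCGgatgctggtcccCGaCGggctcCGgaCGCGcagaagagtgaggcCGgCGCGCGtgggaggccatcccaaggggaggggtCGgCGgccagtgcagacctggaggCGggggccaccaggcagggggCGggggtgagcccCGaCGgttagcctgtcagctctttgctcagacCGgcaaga
The Wnt10b stretch holds 14 CG dinucleotides and 66.8% G and C, and the Wnt1 stretch 23 and 71.6%. Over whole windows of 300 bases (250 before and 50 after a start), the median was 25.5 CG dinucleotides in the 42 windows of the 35 genes of the rule that have one, and 7 in all 32851 windows of the table.

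A gene was called when its adjusted p was below 0.05 (quasi-likelihood test of edgeR, adjusted by the Benjamini-Hochberg method over 26566 genes and repeat families), its log2 fold change was above 1 or below -1 and its mean normalized count was above 100. Of the 51 WNT genes, 37 had enough counts to be tested and 20 were called, 11 of them higher in Top2β-null cells and 9 lower. The same calls were made for 5.52% (higher) and 5.25% (lower) of the 25085 genes tested. All 20 come from the 27 WNT genes with a mean above 100, which gives 40.7% higher and 33.3% lower, against 8.32% and 7.91% of the 16656 genes with such a mean. By adjusted p alone, 15 of the 27 were higher and 10 lower, where 37.3% and 40.3% of those 16656 genes were. The median absolute log2 fold change was 1.80 over the 37 and 0.42 over all genes tested, while the signed medians were 0.093 and -0.0058. The 2 wt and the 2 Top2β-null values did not overlap for 33 of the 37. That share was not computed over all genes tested, so nothing is read from it. Of these 37, 5 (Nkd1, Rspo3, Wnt1, Wnt10a and Wnt5b) had 10 counts in the libraries of 1 genotype only, so that they could be tested only because they are high there and had to differ. By adjusted p alone, 18 of the 37 were higher and 14 lower, where 32.8% and 33.7% of all genes tested were. All 5 are in these counts and in the medians over the 37, so neither is read against the values of all genes. Rspo3 is also among the 20 called. The shift was thus not in 1 direction, and the roles differed in how many of their genes were called each way: ligands 0 higher and 4 lower, receptors 5 and 1, co-receptors 1 and 1, antagonists 2 and 0, R-spondins 1 and 1, and feedback and nuclear genes 2 and 2.

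**Figure D1:**
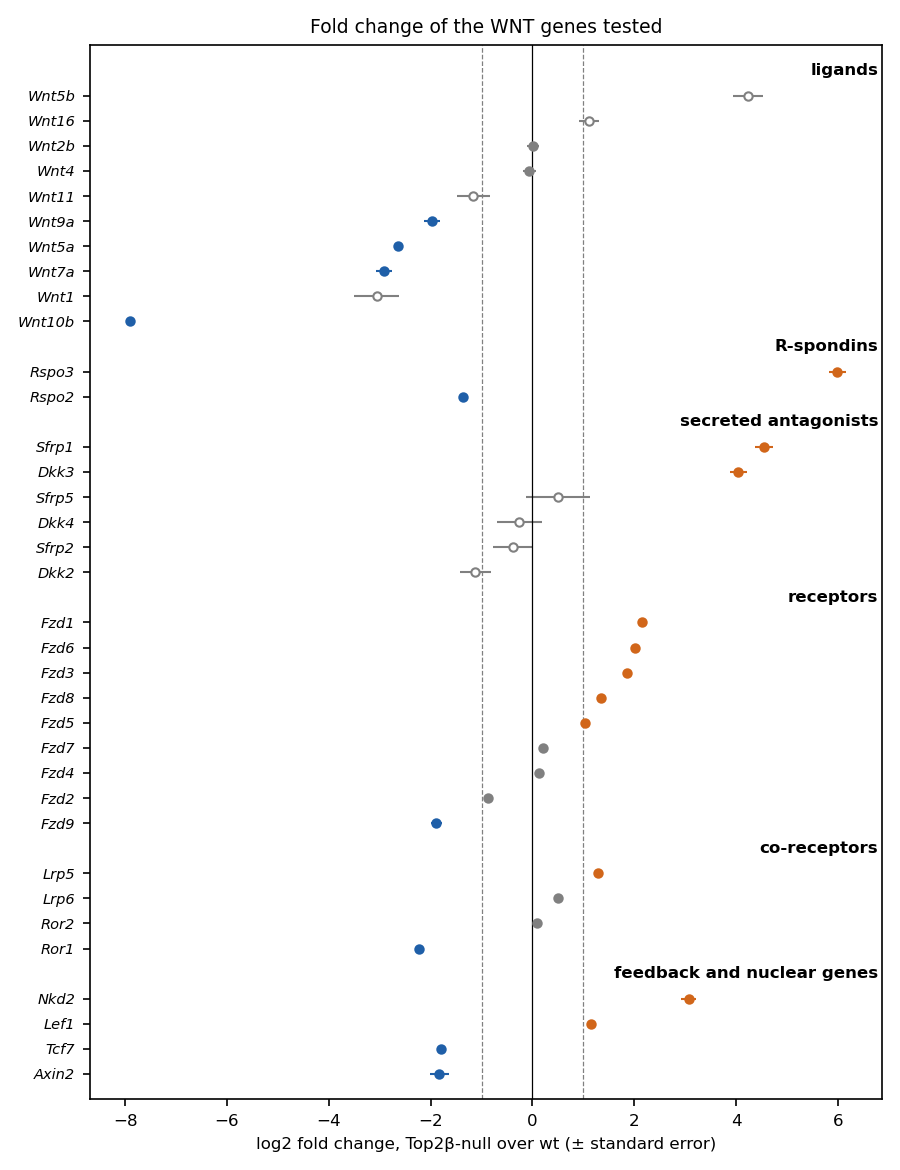
Log2 fold change (Top2β-null over wt) of the WNT genes tested, by role, with bars for the standard error. Orange and blue points were called higher and lower, grey points were not called, open points have a mean normalized count of 100 or below, dashed lines mark -1 and 1, and Wnt10a and Nkd1, which were at the floor in 1 genotype, are left out. Among the called ligands all 4 lie on the left, from Wnt10b at -7.90 to Wnt9a at -1.97, and among the called receptors 5 lie on the right and Fzd9 on the left.

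Among the ligands, 4 of the 6 with a mean above 100 fell and none of the 6 rose. Wnt10b, a ligand of the β-catenin branch that is known to hold back fat cell formation, had 4568 and 4438 normalized counts in wt cells and 21.7 and 15.8 in Top2β-null cells. The Top2β-null level was 0.417% of the wt level, with a log2 fold change of -7.90 (standard error, SE, 0.0895, adjusted p = 3.6e-19). Wnt10b was thus the most abundant ligand per length in wt cells and a minor one in Top2β-null cells. Wnt5a (chromosome 14, 28504750 to 28527448), the best known ligand of the β-catenin-independent branch, had 3436 and 3428 normalized counts in wt and 576 and 528 in Top2β-null cells. Its log2 fold change was -2.64 (SE 0.0533, adjusted p = 3.4e-16). It lies on the chromosome of Top2b, 12.1 Mb away, and the part of DNA linked to the null allele in this difference was not tested.

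Wnt7a, known from limb patterning, had 312 and 286 normalized counts in wt and 37.3 and 41.6 in Top2β-null cells, with a log2 fold change of -2.92 (SE 0.16, adjusted p = 1.1e-10). Wnt9a, a ligand that takes part in joint formation, had 253 and 235 in wt and 68.4 and 56.5 in Top2β-null cells, with a log2 fold change of -1.97 (SE 0.157, adjusted p = 1.3e-08). In all 4 of these genes every Top2β-null value lay below every wt value. Wnt2b and Wnt4 did not pass the test: Wnt2b ranged from 251 to 329 and Wnt4 from 173 to 197 over the 4 libraries, and their log2 fold changes were 0.016 (adjusted p = 0.917) and -0.059 (adjusted p = 0.709), with a sign that turned when single libraries were left out.

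The 5 other ligands that were tested had a mean below 100. Each had an adjusted p below 0.05 and an absolute log2 fold change above 1, as did 19.3% (higher) and 15.1% (lower) of all genes tested with so low a mean, but Wnt1, Wnt5b and Wnt10a passed the filter on low counts through the genotype where they are high, and nothing is read from the count. Wnt5b, a close relative of Wnt5a, had 8.07 and 5.80 normalized counts in wt and 126 and 138 in Top2β-null cells, a log2 fold change of 4.23 (SE 0.294, adjusted p = 2.3e-09). Wnt16 had 53.5 and 53.1 in wt and 127 and 103 in Top2β-null cells, a log2 fold change of 1.11 (SE 0.201, adjusted p = 1.5e-04). Wnt10a, the relative of Wnt10b, had 0 counts in both wt libraries and 16 and 14 counts in the Top2β-null libraries. Against a floor of 3 counts per library, it was at least 5.14-fold higher. Per kilobase of exon, Wnt10a reached 6.17 and Wnt5b 49.7 in Top2β-null cells, where Wnt10b had 1324 and Wnt5a 439 in wt cells. Wnt1, the neighbour of Wnt10b, had 38.4 and 39.6 in wt and 6.21 and 2.97 in Top2β-null cells, with a log2 fold change of -3.06 (SE 0.444, adjusted p = 1.5e-05). Wnt11, which takes part in cell movement, had 41.4 and 54.1 against 26.9 and 15.8, with a log2 fold change of -1.16 (SE 0.327, adjusted p = 0.00539), and without Top2β-null replicate 2 its adjusted p was 0.0594. Of its exons, 8.8% overlap Gm8398, a pseudogene on the opposite strand. The 8 ligands Wnt2, Wnt3, Wnt3a, Wnt6, Wnt7b, Wnt8a, Wnt8b and Wnt9b had too few counts to be tested, and of these Wnt3a and Wnt9b had 0 counts in every library.

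**Figure D2:**
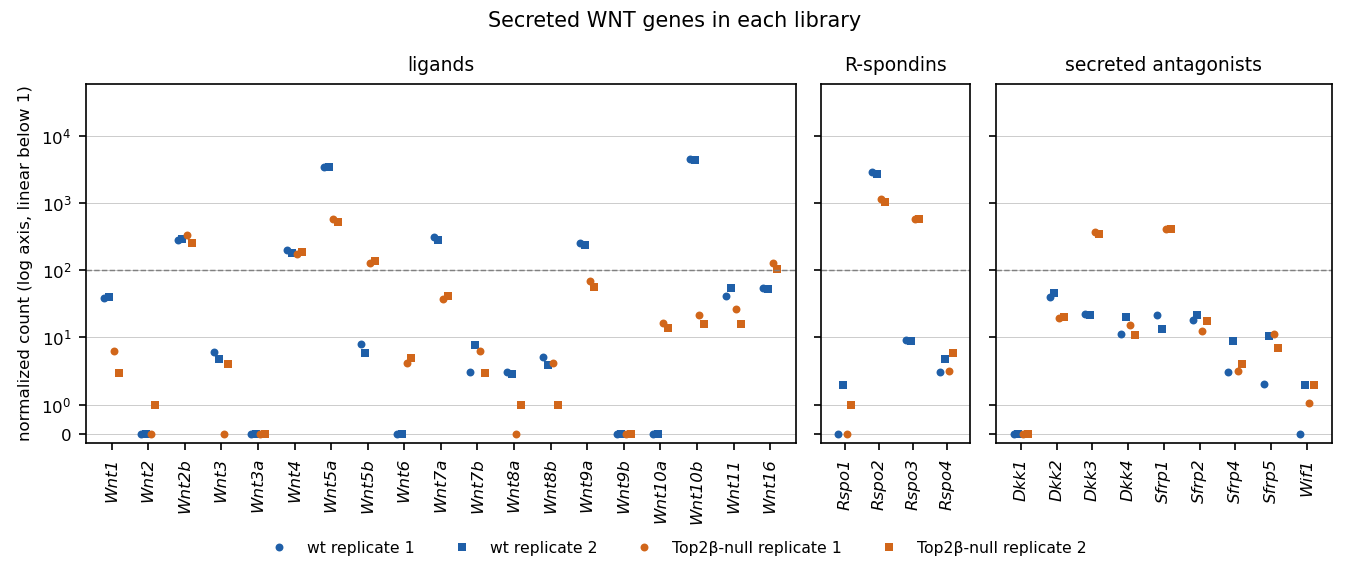
Normalized counts of the ligands, R-spondins and secreted antagonists in each library, on an axis that is logarithmic above 1 and linear below it. Blue marks wt and orange Top2β-null libraries, circles replicate 1 and squares replicate 2, and the dashed line is a count of 100. Wnt10b drops from 4568 and 4438 to 21.7 and 15.8, while Rspo3, Dkk3 and Sfrp1 lie below the line in both wt libraries and above it in both Top2β-null libraries.

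Levels of different genes were compared per length, as normalized counts per kilobase of exon. Summed over all ligands, this level was 2092 ± 36.5 (SD, n = 2) in wt and 313 ± 21.9 in Top2β-null cells, or 6.67-fold lower. For this sum and the 5 others below, a two-sided exact permutation test over libraries gave p = 0.33, which is the lowest that 2 against 2 libraries can reach. Wnt10b made up 63.3% of the ligand sum in wt cells and 1.75% in Top2β-null cells. In Top2β-null cells Wnt5a made up 22.5%, Wnt2b 21.9%, Wnt5b 15.9%, Wnt4 13.7% and Wnt16 8.41% of the lower sum. Without the division by length, Wnt5a made up 38.2% there. The share of Wnt5a was near its wt share of 21.0% although its own level went from 439 to 70.5 per kilobase. Wnt2b, whose level per kilobase was 68.1 and 69.0, went from 3.26% to 21.9% of the sum.

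The Frizzled receptors went mostly the other way. Of the 9 that were expressed, all with a mean above 100, 5 were called higher, 1 was called lower and the other 3 passed the p threshold with smaller changes. Fzd1 had 836 and 765 normalized counts in wt and 3554 and 3553 in Top2β-null cells, 4.44-fold higher (log2 fold change 2.15, SE 0.0507, adjusted p = 2.4e-15). Fzd6, which acts in planar cell polarity, had 1115 and 1237 in wt and 4717 and 4849 in Top2β-null cells, 4.07-fold higher (log2 fold change 2.02, SE 0.0481, adjusted p = 2.7e-15). Fzd3, which guides axons and also acts in planar cell polarity, had 674 and 702 in wt and 2499 and 2449 in Top2β-null cells, 3.60-fold higher (log2 fold change 1.85, SE 0.0517, adjusted p = 2.0e-14). These 3 receptors had Top2β-null values over 3 times every wt value. Like Wnt5a, Fzd3 (65192449 to 65262463) lies on chromosome 14, 48.8 Mb from Top2b.

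Smaller rises were seen for Fzd8 and Fzd5, both receptors of the β-catenin branch. Fzd8 had 963 and 971 normalized counts in wt and 2426 and 2503 in Top2β-null cells (log2 fold change 1.35, SE 0.0486, adjusted p = 4.9e-13). Fzd5 had 1248 and 1231 in wt and 2438 and 2642 in Top2β-null cells (log2 fold change 1.04, SE 0.0511, adjusted p = 2.8e-11), close to the cut-off of 1, and it was not called without Top2β-null replicate 2. Of its exons, 17.8% overlap a gene on the opposite strand, Gm38058. Fzd9 was the receptor that was called lower, with 431 and 428 in wt and 125 and 107 in Top2β-null cells (log2 fold change -1.89, SE 0.113, adjusted p = 3.4e-10).

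Fzd2, the most abundant receptor per length in both genotypes, had 8567 and 8765 normalized counts in wt and 4632 and 4773 in Top2β-null cells. It fell by 0.88 on the log2 scale (SE 0.0286, adjusted p = 1.3e-13), which misses the cut-off of a call. Fzd7, next in wt cells and a relative of Fzd1 and Fzd2, had 4115 and 4156 in wt and 4557 and 4950 in Top2β-null cells (log2 fold change 0.20, SE 0.0382, adjusted p = 2.3e-04). Fzd4, the receptor of retinal vessel growth, had 1296 and 1375 in wt and 1479 and 1446 in Top2β-null cells (log2 fold change 0.13, SE 0.0521, adjusted p = 0.0387), and it did not pass with DESeq2 (adjusted p = 0.119) or without wt replicate 1 (adjusted p = 0.348). Fzd10 had 0 counts in every library. The summed receptor level was 4494 ± 58.7 per kilobase (SD, n = 2) in wt and 5413 ± 126 in Top2β-null cells, a log2 difference of 0.27, which is smaller than the change of 7 of the 9 receptors and larger than that of Fzd7 and Fzd4. Fzd2 made up 52.6% of it in wt and 23.7% in Top2β-null cells, while Fzd6 went from 5.43% to 18.3% and Fzd1 from 4.25% to 15.6%. In Top2β-null cells the order by level per kilobase was Fzd2 (1284), Fzd7 (1049), Fzd6 (993) and Fzd1 (847), where in wt cells Fzd2 (2366) and Fzd7 (913) were followed by Fzd6 at 244.

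**Figure D3:**
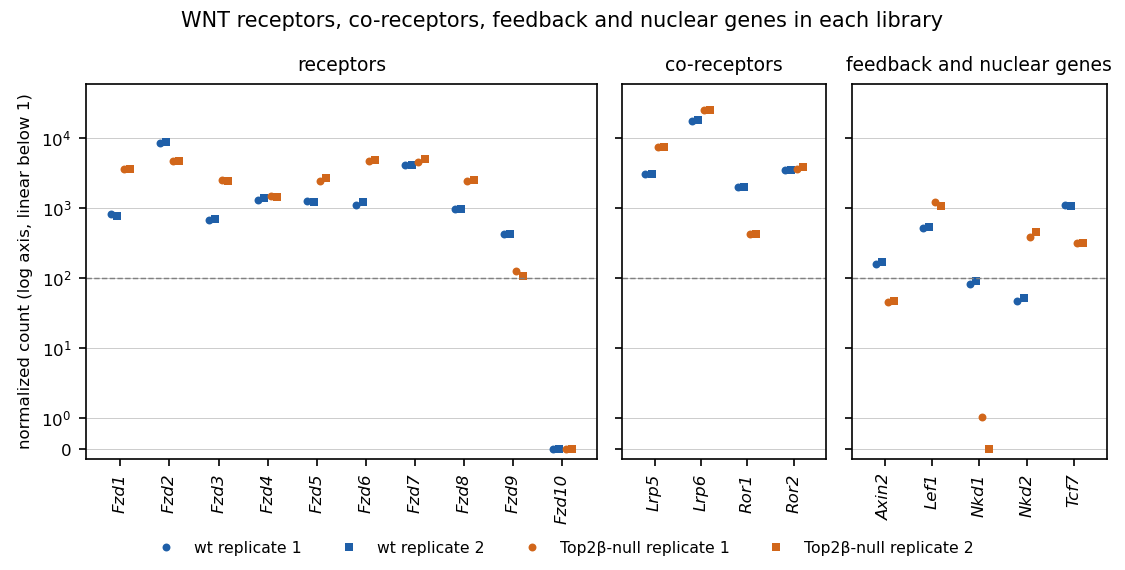
Normalized counts of the receptors, co-receptors and feedback and nuclear genes in each library, on an axis that is logarithmic above 1 and linear below it. Blue marks wt and orange Top2β-null libraries, circles replicate 1 and squares replicate 2, and the dashed line is a count of 100. Fzd1, Fzd3 and Fzd6 lie between 674 and 1237 in wt and between 2449 and 4849 in Top2β-null libraries, and Lrp6 is the highest gene in every library.

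The co-receptors of the β-catenin branch were higher in Top2β-null cells, and those of the other branch were split. Lrp5 had 3053 and 3105 normalized counts in wt and 7538 and 7444 in Top2β-null cells and was called higher (log2 fold change 1.28, SE 0.03, adjusted p = 2.1e-15). Lrp6, its close relative, had 17348 and 17876 in wt and 25044 and 24972 in Top2β-null cells, a rise below the cut-off of a call (log2 fold change 0.51, SE 0.0253, adjusted p = 3.4e-11). Ror1, which like Ror2 serves the β-catenin-independent branch, had 1971 and 2024 in wt and 426 and 433 in Top2β-null cells, 4.65-fold lower (log2 fold change -2.22, SE 0.0574, adjusted p = 7.5e-15). Its relative Ror2 had 3523 and 3447 in wt and 3641 and 3794 in Top2β-null cells (log2 fold change 0.093, SE 0.0369, adjusted p = 0.0365), and did not pass with DESeq2 (adjusted p = 0.0995). Nor did Ror2 pass without Top2β-null replicate 2 (adjusted p = 0.155), wt replicate 1 (0.0635) or wt replicate 2 (0.231). Wnt5a and Ror1 thus both fell, while Ror2 stayed within 1.07-fold. In wt cells Ror2 was the more abundant of the pair per length, with 29.6% of the co-receptor sum. The summed co-receptor level per kilobase was 2773 ± 24.8 (SD, n = 2) in wt and 3549 ± 15.8 in Top2β-null cells, of which Lrp6 made up 46.5% and 51.5%, and Ror1 12.5% and 2.10%.

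The R-spondins changed from a single gene to a pair. Rspo2 (chromosome 15, 43020794 to 43170826) had 2881 and 2728 normalized counts in wt and 1152 and 1037 in Top2β-null cells, and it fell by 1.36 on the log2 scale (SE 0.0548, adjusted p = 2.2e-12). Rspo3 (chromosome 10, 29452416 to 29535867) had 9.08 and 8.69 in wt and 576 and 569 in Top2β-null cells, 64.4-fold higher (log2 fold change 5.99, SE 0.168, adjusted p = 2.1e-14). The Rspo3 call needs both Top2β-null libraries, since without either of them the gene no longer has 10 counts in 2 libraries and was not tested. Rspo2 made up 99.1% of the summed R-spondin level per kilobase in wt and 53.3% in Top2β-null cells, and Rspo3 0.520% and 46.2%. The sum itself was 554 ± 20 per kilobase (SD, n = 2) in wt and 401 ± 16.3 in Top2β-null cells. Rspo1 and Rspo4 had at most 6 counts in any library and were not tested. Of the exons of Rspo3, 13.1% overlap an antisense gene, Gm48159, and the strand setting of the counting is not given in the sources used here.

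The secreted antagonists were low in wt cells, with at most 45.4 normalized counts, and 2 of them were called in Top2β-null cells. Sfrp1 (chromosome 8, 23411502 to 23449632), which binds WNT ligands, had 21.2 and 13.5 normalized counts in wt and 410 and 405 in Top2β-null cells, 23.5-fold higher (log2 fold change 4.55, SE 0.178, adjusted p = 1.5e-12). Dkk3 (chromosome 7, 112116017 to 112159057), a divergent member of its family whose action on WNT signaling is debated, had 22.2 and 21.2 in wt and 369 and 349 in Top2β-null cells, 16.5-fold higher (log2 fold change 4.04, SE 0.168, adjusted p = 3.2e-12). Dkk2 was lower at a low level, with 40.4 and 45.4 in wt and 19.7 and 19.8 in Top2β-null cells (log2 fold change -1.12, SE 0.307, adjusted p = 0.0047). Dkk4, Sfrp2 and Sfrp5 ranged from 2.02 to 21.2 normalized counts over all libraries and did not pass the test, with log2 fold changes of -0.26, -0.38 and 0.50. Of the exons of Sfrp2, 16.1% overlap the antisense gene Gm26771. Dkk1 had 0 counts in every library, and Sfrp4 and Wif1 had too few to be tested. The summed antagonist level per kilobase was 48.2 ± 10.2 (SD, n = 2) in wt and 229 ± 6.98 in Top2β-null cells, and in the latter Dkk3 made up 46.7% and Sfrp1 40.8% of it. In wt cells the ligand sum was far above the antagonist sum, and in Top2β-null cells the sums were 313 and 229 per kilobase.

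**Figure D4:**
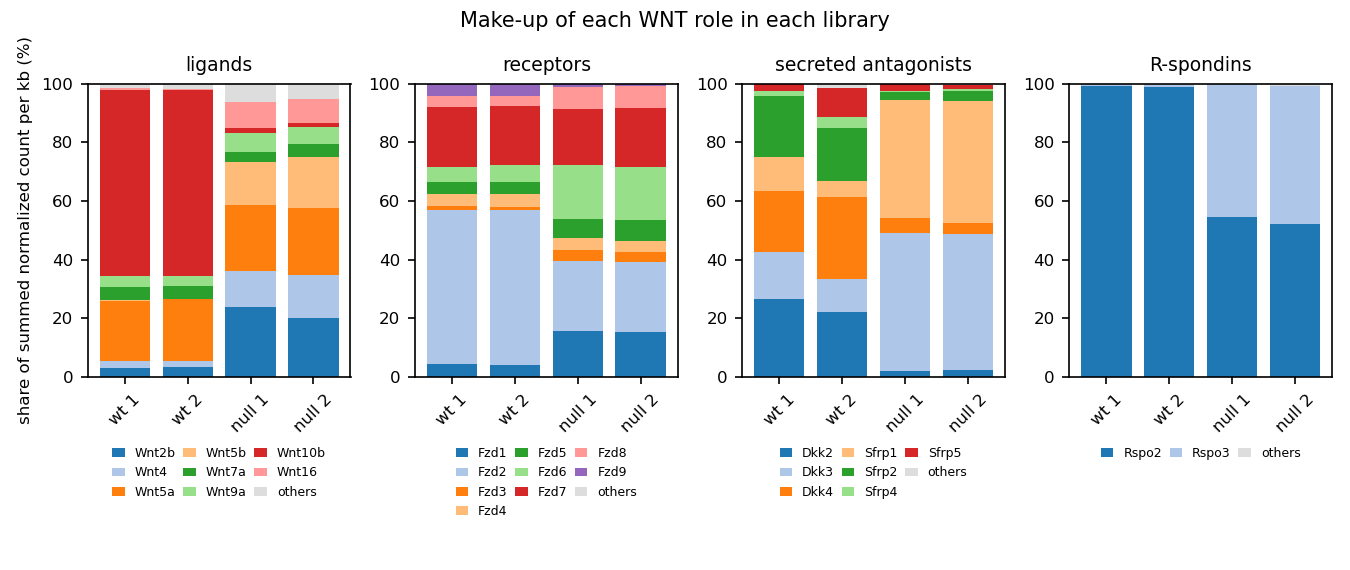
Share of each gene in the summed normalized count per kilobase of its role, in percent, for each library, with genes that never reach 3% pooled as others. Wnt10b fills 63.3% of the ligand bars in wt and 1.75% in Top2β-null libraries on average, Fzd2 goes from 52.6% to 23.7% of the receptors, and Rspo3 from 0.520% to 46.2% of the R-spondins.

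Feedback and nuclear genes of the pathway moved in both directions. Axin2, a widely used target gene of β-catenin that limits the signal, had 158 and 169 normalized counts in wt and 45.6 and 46.5 in Top2β-null cells (log2 fold change -1.83, SE 0.181, adjusted p = 1.9e-07). Its mean was near the cut-off of 100, and it was not called without either wt library because the mean then fell below it. Nkd1 and Nkd2, which bind Dishevelled and dampen the signal, went opposite ways. Nkd1 had 82 and 93 counts in wt and 1 and 0 in Top2β-null cells, a ratio of 171 with a 95% exact interval from 30.2 to 6777 that covers counting error alone (adjusted p = 8.7e-09), and with its low mean it was not called. Nkd2 had 46.4 and 52.2 normalized counts in wt and 381 and 448 in Top2β-null cells, 8.41-fold higher (log2 fold change 3.07, SE 0.148, adjusted p = 2.1e-11).

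Tcf7 and Lef1 encode partners of β-catenin on DNA. Tcf7 had 1097 and 1080 normalized counts in wt and 314 and 312 in Top2β-null cells, and it fell by 1.80 on the log2 scale (SE 0.0671, adjusted p = 7.9e-13). Lef1 had 514 and 533 in wt and 1218 and 1086 in Top2β-null cells (log2 fold change 1.14, SE 0.0692, adjusted p = 4.3e-10). Per kilobase, Tcf7 went from 415 to 119 and Lef1 from 59.6 to 131, so that the order of the pair was turned. Of the exons of Lef1, 13.7% overlap the antisense gene Gm43352. The summed level of the 5 genes went from 533 ± 0.211 per kilobase (SD, n = 2) in wt to 345 ± 1.43 in Top2β-null cells, a direction that did not hold without the division by length.

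The core of the motif bound by Tcf7, Lef1 and their relatives, CTTTGA, was searched on both strands in the RefSeq promoter windows. It was present in 6 of the 35 WNT genes with a window (17.1%), near the 18.2% of all 27025 genes in the table. Among the called genes with a window, 3 of 11 held it, namely Fzd1, Lef1 and Ror1, of which Fzd1 and Lef1 rose and Ror1 fell. The matches are shown with the bases around them, 5′ to 3′ in the direction of transcription and with the motif in capitals, to show which called genes carry it. They lie before the start on GRCm38.p6: Fzd1 (chr5:4758441-4758466, reverse strand), Lef1 before an internal start (chr3:131156102-131156131 and chr3:131156162-131156191, forward strand) and Ror1 (chr4:100095574-100095603, forward strand).
Fzd1: cgcagcacTCAAAGtagcagtctgtg
Lef1, distal: taaaatacatggTCAAAGgaaaataggtat
Lef1, proximal: cattgtctgttcTCAAAGtcaggtcttgca
Ror1: cgtcaaaatgtcTCAAAGgtcccatcaaca
A match to these letters is a description of the window and does not show binding.

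A further 67 genes of the pathway act in secretion, the receptor complex, the cytoplasm, the nucleus and planar cell polarity. Of these, 61 were tested, and 12 of the 53 with a mean above 100 were called. These were 5 higher (9.43%) and 7 lower (13.2%), against 8.32% and 7.91% of all genes with such a mean, so the higher share was close to the background. By adjusted p alone, 30 of the 53 were higher and 20 lower, where 37.3% and 40.3% of all genes with such a mean were, and the share called was not tested against that of the WNT genes above. Planar cell polarity, the alignment of cells within a tissue plane, held 3 of the 5 higher genes. Vangl2, a core membrane protein of that system, had 267 and 300 normalized counts in wt and 2400 and 2488 in Top2β-null cells (log2 fold change 3.10, SE 0.0647, adjusted p = 5.1e-16). Prickle2 and Prickle1, its cytoplasmic partners, had log2 fold changes of 2.37 and 2.21 (adjusted p = 6.1e-15 and 1.0e-13), from 363 and 358 to 1901 and 1830 for Prickle2 and from 306 and 313 to 1363 and 1496 for Prickle1. Daam1, a formin that acts downstream of Dishevelled, fell by 1.44 on the log2 scale, from 6195 and 6463 to 2282 and 2396 (adjusted p = 6.7e-15), and the cadherin Celsr2 fell by 1.32, from 206 and 248 to 110 and 73.3 (adjusted p = 6.4e-06). Planar cell polarity genes thus had 3 calls higher and 2 lower among 10 with a mean above 100.

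In the receptor complex, the Wnt co-receptor Ptk7 had 1585 and 1494 normalized counts in wt and 6536 and 6600 in Top2β-null cells (log2 fold change 2.09, SE 0.0379, adjusted p = 8.7e-17). Adgra2, which with Reck serves the ligands Wnt7a and Wnt7b, had 7818 and 7946 in wt and 17186 and 17623 in Top2β-null cells (log2 fold change 1.14, SE 0.0259, adjusted p = 1.5e-15). Both lay well above their wt values, whereas 2 other genes of the complex fell. Apcdd1, an inhibitor at the cell surface, went from 3342 and 3348 to 458 and 423 (log2 fold change -2.93, adjusted p = 1.3e-16). Lgr4, a receptor of R-spondins, went from 3845 and 3967 to 1371 and 1259 (log2 fold change -1.57, adjusted p = 5.1e-14).

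Inside the cell, Dact2, a modulator that binds Dishevelled, had 1943 and 2029 normalized counts in wt and 35.2 and 27.7 in Top2β-null cells, 63.1-fold lower (log2 fold change -5.98, SE 0.0985, adjusted p = 2.7e-17). Dvl2, a Dishevelled protein that relays the signal of the receptors, went from 30310 and 29870 to 8264 and 8128 (log2 fold change -1.88, SE 0.0256, adjusted p = 2.9e-18). The other Dishevelled genes, Dvl1 (log2 fold change -0.29) and Dvl3 (0.33), were not called. Dact2 and Dvl2 were the 2 cytoplasmic genes called among 19 with a mean above 100. Porcn, which attaches the lipid to WNT proteins, was the remaining gene called lower. None of the 12 nuclear genes with a mean above 100 was called, although all 12 passed the p threshold, 10 of them higher and 2 lower (edgeR). Tcf7l1 and Tcf7l2, the relatives of Tcf7 and Lef1, had log2 fold changes of 0.94 and 0.76, and Ctnnb1, which encodes β-catenin, had 0.37. With scaling to the total count, Tcf7l1 was called higher. Gpc3, Kremen2, Lgr5, Sost, Sostdc1 and Sp5 were not tested for lack of counts.

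**Figure D5:**
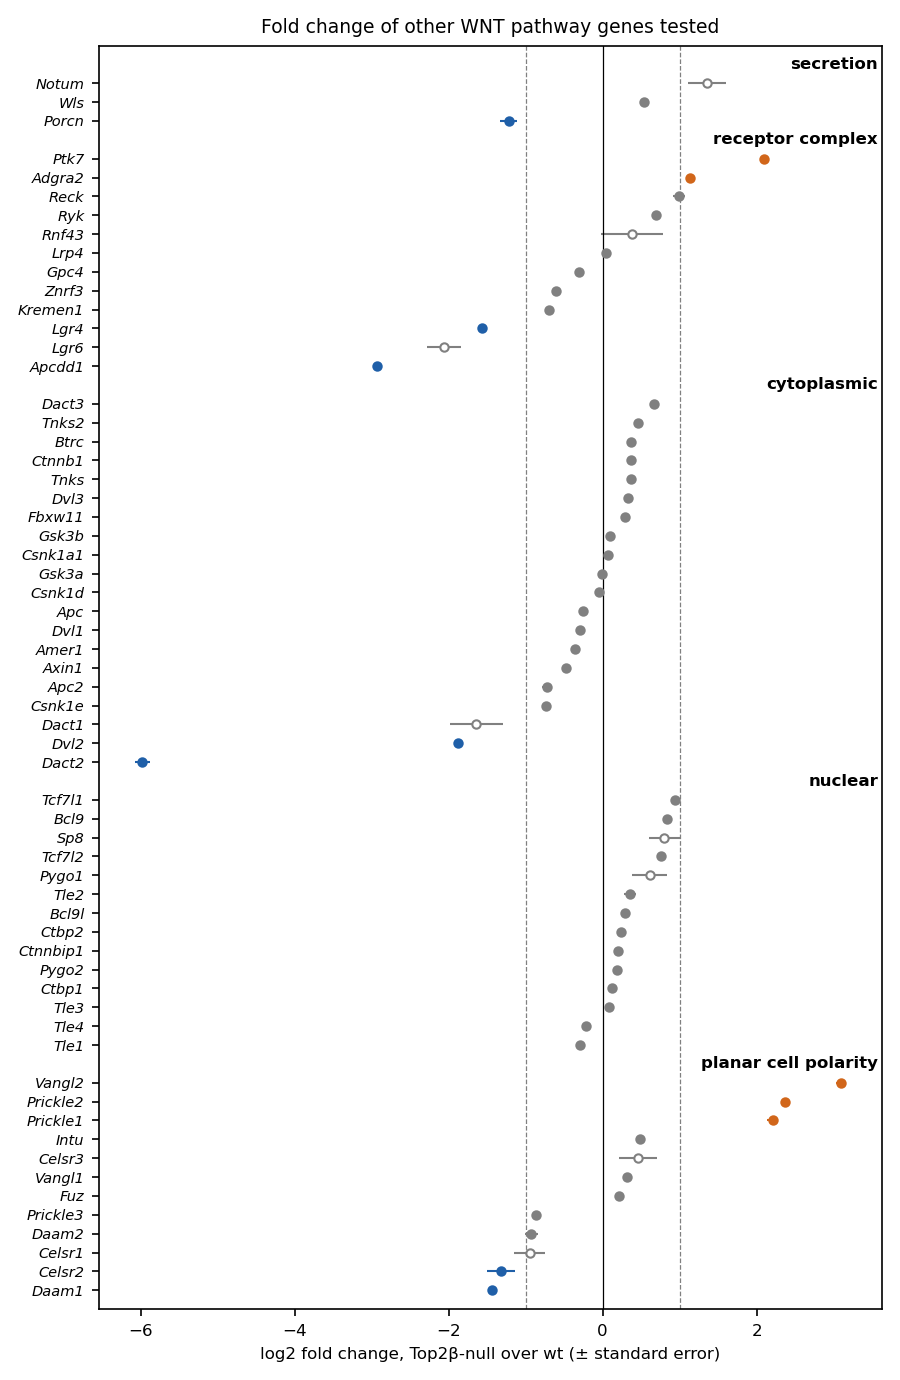
Log2 fold change (Top2β-null over wt) of 61 other pathway genes tested, with bars for the standard error. Orange and blue points were called higher and lower, grey points were not called, open points have a mean normalized count of 100 or below, and dashed lines mark -1 and 1. The called genes include Vangl2 at 3.10 and Dact2 at -5.98, and every nuclear gene lies between the dashed lines.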

How the data were processed

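Libraries were grouped by the genotype and replicate number in the sample labels, and all 4 count columns were used. The deposited values are raw counts per gene and repeat family, which the authors obtained with TEtranscripts from reads trimmed by Trim Galore! and mapped to mm10 by STAR, multiply mapped reads included. The strand setting and the handling of reads shared by several places are not given in the sources used here. Symbols, positions and merged exon lengths came from GENCODE on GRCm38, which matched 54495 of 54842 genes.

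In R 4.3.3, edgeR 4.0.16 was fitted with genotype as the only term to the 25085 genes and 1481 repeat families that reached 10 counts in 2 or more libraries, with TMM factors and Benjamini-Hochberg adjustment over all of them. Standard errors are absolute log2 fold changes over the square root of F. The script was tested on simulated data. The cut-offs of a call are those of the study's methods, which used DESeq2. Every WNT gene was accounted for: those with a mean above 100 that passed the test, and those with a lower mean that passed with an absolute log2 fold change above 1, are given by library, as are called pathway genes, up to 6 in each direction. The genes and lists were chosen with earlier results of these data known. Replicate libraries differed beyond sampling noise (chi-square over degrees of freedom of 3.65 for wt, 5.07 for Top2β-null cells). Alternatives were DESeq2 1.42.0, other scalings, filters, cut-offs and lengths, a replicate block, and leaving out each library.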

Additional observations from a re-analysis of the deposited data

How the results depend on the processing

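The same 20 WNT genes were called with DESeq2, scaling to the total count, TMM factors from genes only, no filter on low counts and the replicate block, which also left 11 higher and 9 lower calls, 5 and 7 pathway calls and a median of 0.093. The replicate numbers are not known to pair the libraries: deviations of same-numbered libraries correlated at 0.012 over 17900 features. A filter at 100 counts in every library, which removes genes that are low in 1 genotype, left 7 and 5, all among the 20, and lost Axin2, Dkk3, Nkd2, Rspo3, Sfrp1, Wnt10b, Wnt7a and Wnt9a. Of the 12 pathway genes called, that filter lost Celsr2 and Dact2. All 12 were called under the other scalings, DESeq2, no filter and the replicate block, and Reck was gained with genes-only factors and with no filter, and Reck and Tcf7l1 with scaling to the total count. With 1 library left out, all 12 were called, and Daam2 was gained without Top2β-null replicate 1 and Reck without Top2β-null replicate 2. With adjusted p as the only cut-off there were 18 higher and 14 lower WNT genes, and 33 and 23 of 61 pathway genes, where 32.8% and 33.7% of all genes tested were. These WNT counts include the 5 genes that passed the filter on low counts through 1 genotype. With a mean above 10 in place of 100, 13 WNT genes were called higher, Wnt5b and Wnt16 now among them, and 13 lower. The pathway calls were then 6 and 9. The share over all genes was not computed for that cut-off. With 1 library left out, 18 to 19 of the 20 were called, without Rspo3 (either Top2β-null library left out), Fzd5 (Top2β-null replicate 2) or Axin2 (either wt library). The median log2 fold change of the WNT genes was 0.16 with scaling to the total count and ranged from -0.11 (without Top2β-null replicate 1) to 0.18 (without wt replicate 2), so its sign is not stable. Over all genes that scaling gave a median of 0.064.

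With 1 library left out, Wnt2b ranged from -0.15 (without Top2β-null replicate 1) to 0.22, and it was -0.031 without wt replicate 1. Wnt4 turned to 0.011 with scaling to the total count, to 0.032 without Top2β-null replicate 1 and to 0.00088 without wt replicate 1. Of 253 values for 45 named genes with all libraries, 250 stayed on the same side of zero and of the threshold. With 1 library left out, 161 of 170 did, 5 lost the threshold (Ror2 in 3 runs, Fzd4 and Wnt11 in 1 each) and 4 changed sign (Wnt2b and Wnt4). Runs in which a gene was not tested are not among these values. With 1 library left out, that holds for some runs of Nkd1, Rspo3, Wnt1, Wnt5b and Wnt10a. With all libraries, it holds for genes removed by the filter at 100 counts. The log2 differences of the sums depended on the length. With the longest transcript they were -0.71 (R-spondins), 0.39 (co-receptors) and -0.24 (feedback and nuclear genes). Without division by length they were -0.75, 0.49 and 0.011 for these roles, the last reversed, and -2.66 for ligands, 0.47 for receptors and 2.67 for antagonists. Scaling to the total count gave -0.39, 0.43 and -0.56 for the former 3 and 0.34 for receptors, and genes-only factors 0.38 for co-receptors and -0.61 for feedback and nuclear genes. With 1 library left out, these differences ranged from -2.77 to -2.65 for ligands, 0.24 to 0.33 for receptors, 0.33 to 0.40 for co-receptors, 2.03 to 2.46 for antagonists, -0.52 to -0.40 for R-spondins and -0.64 to -0.59 for feedback and nuclear genes. Shares moved likewise: with the longest transcript and without length, Rspo2 had 99.4% and 99.5% in wt and 63.6% and 65.4% in Top2β-null cells, Wnt10b 66.3% and 49.4% in wt, Wnt5a 22.0% and 38.2% in Top2β-null, and Fzd2 52.3% and 44.6% in wt and 23.2% and 17.5% in Top2β-null cells. Without length, Dkk2 had 33.0% in wt and Dkk3 43.3% in Top2β-null cells. The cause of these shifts beyond the lengths themselves was not tested. At these depths, genes under 10 counts could not be compared.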

Other observations

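The neighbours of the WNT genes were looked at as a description. Each of the 20 called genes was set beside the nearest tested protein-coding gene on either side. Beside Wnt10b (log2 fold change -7.90), Arf3 lay 7.5 kb away with -0.55 and Wnt1 11.7 kb away with -3.06. Beside Rspo3 (5.99), Rnf146, the nearer gene, had -0.37 and Cenpw, 658.7 kb away, had -0.29, and beside Dkk3 (4.04), Usp47 lay 4.4 kb away with 0.45 and Mical2 66.8 kb away with -0.60. None of these 6 neighbours was called, and Wnt1 had a mean below 100. The neighbours that were called, of 40 in all, were Tcim beside Sfrp1 (3.41), Angpt1 beside Rspo2 (2.23), Pgm1 beside Ror1 (-1.15) and Extl3 beside Fzd3 (-1.21), of which Angpt1 and Extl3 went against the direction of their WNT neighbour. These are 4 of 40, where 5.52% of all genes tested were called higher and 5.25% lower. On the other side of Fzd3, 4.2 kb away, Fbxo16 had 4.29 (adjusted p = 5.2e-06, edgeR) at a mean of 26.6, too low for a call, and Rgs9 beside Axin2 had 4.04 at a mean of 31.2.

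Wnt6 and Wnt10a, whose starts lie 19.6 kb apart on chromosome 1, both had 0 counts in both wt libraries. In the Top2β-null libraries Wnt6 had 4 and 5 counts and Wnt10a 16 and 14. Wnt9a, whose neighbour Wnt3a lies 16.2 kb away on chromosome 11, was expressed in both genotypes while Wnt3a had 0 counts in every library.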
